A study of Mus musculus with 2 samples.

Results

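The genes described here are 10 enzymes that modify collagen, namely the collagen prolyl 4-hydroxylase alpha subunits P4ha1, P4ha2 and P4ha3, the lysyl hydroxylases Plod1, Plod2 and Plod3, and the lysyl oxidases Lox, Loxl2, Loxl3 and Loxl4. They were chosen by symbol, with results of these data known, and are 10 of 37072 gene names on the array, represented by 20 of 56605 probes. The study compared mouse cells that received an agent called S180 with mouse cells given DMSO, a common solvent and the control by the labels, by hybridising total RNA of each to 1 Agilent 1-colour (Cy3) array. The labels name neither a cell line, tissue, strain, genotype, dose nor exposure time, and they do not say what S180 is. There was 1 array for each agent, so that no difference could be set against the spread between replicates and no p-value was computed. Because the members were chosen on this same contrast, their differences are a description.

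Collagen chains are modified in the endoplasmic reticulum before they fold into a triple helix. Prolyl 4-hydroxylase, a tetramer of catalytic alpha subunits and P4hb, hydroxylates prolines and so stabilises the helix, and the Plod enzymes hydroxylate lysines, which are then glycosylated or used for cross-links. Both enzyme families are dioxygenases that consume oxygen and 2-oxoglutarate and need iron and ascorbate. Outside the cell the lysyl oxidases, which are copper enzymes, oxidise lysine and hydroxylysine side chains so that the chains become cross-linked. P4ha1, P4ha2, Plod2, Lox and Loxl2 are known as targets of the hypoxia-inducible factors (HIF).

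Promoter sequences are shown first for members whose signals were measured, because HIF binds the core motifs ACGTG and GCGTG. RefSeq windows of the mouse assembly GRCm38.p6, which reach from 250 bases before to 50 after a gene's start, were matched by symbol for 6 of the 10 genes (P4ha1, P4ha2, P4ha3, Plod1, Plod3 and Loxl4). The 250 bases before the start are printed from 5′ to 3′ on the gene's strand, with every ACGTG or GCGTG of either strand in capitals, so that a motif on the opposite strand reads CACGT or CACGC. The stretch of P4ha1 is chr10:59323046-59323295 (plus strand), that of P4ha2 is chr11:54100674-54100923 (plus), that of Plod1 is chr4:147936777-147937026 (minus) and that of Plod3 is chr5:136986769-136987018 (plus).
P4ha1: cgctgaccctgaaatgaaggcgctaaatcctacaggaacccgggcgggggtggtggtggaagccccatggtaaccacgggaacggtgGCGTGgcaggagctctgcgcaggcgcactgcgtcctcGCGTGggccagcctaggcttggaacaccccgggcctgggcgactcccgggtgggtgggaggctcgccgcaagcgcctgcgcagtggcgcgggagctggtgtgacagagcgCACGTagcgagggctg
P4ha2: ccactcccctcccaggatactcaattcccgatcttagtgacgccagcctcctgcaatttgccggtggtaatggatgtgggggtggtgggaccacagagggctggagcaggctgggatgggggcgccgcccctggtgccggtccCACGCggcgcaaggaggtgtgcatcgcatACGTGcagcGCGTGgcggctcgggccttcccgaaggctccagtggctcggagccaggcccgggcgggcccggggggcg
Plod1: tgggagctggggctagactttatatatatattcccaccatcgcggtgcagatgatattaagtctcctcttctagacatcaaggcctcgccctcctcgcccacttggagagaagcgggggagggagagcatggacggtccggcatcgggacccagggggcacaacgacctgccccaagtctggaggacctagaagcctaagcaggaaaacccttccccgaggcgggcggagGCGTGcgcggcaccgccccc
Plod3: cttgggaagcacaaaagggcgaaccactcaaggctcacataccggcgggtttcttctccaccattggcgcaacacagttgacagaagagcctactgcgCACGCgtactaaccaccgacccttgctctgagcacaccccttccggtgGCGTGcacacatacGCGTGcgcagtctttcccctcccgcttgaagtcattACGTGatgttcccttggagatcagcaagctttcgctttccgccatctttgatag

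The window of P4ha1 held 3 matches, whose first bases lay 163, 126 and 16 bases before the start. That of P4ha2 held 4, of which 3 lay 107, 78 and 69 bases before the start and the other within the 50 bases after it. Plod3 also held 4 matches (152, 104, 90 and 54 bases before the start) and Plod1 held 2, one of them 20 bases before the start. The window of Loxl4 held 1 match and that of P4ha3 held 0. No match in these windows was part of the E-box CACGTG. Among all 32851 windows of the same length, 43.8% held at least 1 match and 20.6% at least 2. The printed stretches of P4ha1 and P4ha2 were 69.6% and 70.0% G and C, against 61.6% for Plod1 and 55.6% for Plod3. Matches were found both in P4ha1 and P4ha2, which were higher in S180, and in Plod3, whose brightest probe differed by a log2 value of 0.10. No window was matched for Plod2 and Loxl2, which were also higher. A relation between the motif and the differences was not tested. A match describes the sequence and does not show binding.

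A further set of sequences is shown because these probes lie across an exon junction. Where the junction splits each probe is not given, and whether unspliced RNA adds to their signal was not tested. Each array probe is 60 bases long, and a probe whose coordinates in the files (build mm9) span more than 60 bases is split by an intron in the genome. Among the measured members this held for 1 probe each of P4ha1 (chr10:58802114-58805464), Plod3 (chr5:137466696-137466864) and Loxl3 (chr6:83000426-83000598), all on the plus strand. The sequences are those in the files, with no part in capitals.
P4ha1 junction probe: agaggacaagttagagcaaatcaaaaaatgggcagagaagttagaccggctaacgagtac
Plod3 junction probe: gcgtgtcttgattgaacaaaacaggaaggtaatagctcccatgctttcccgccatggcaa
Loxl3 junction probe: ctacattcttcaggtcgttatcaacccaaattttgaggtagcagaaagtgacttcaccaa

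A probe was called measured when the scanner software marked it well above background on both arrays and it was not saturated. A gene was represented by its brightest probe. By this rule 20777 of 37072 genes were measured, among them 7 of the 10 members. Signals are given as deposited, and differences (S180 minus DMSO) are on the log2 scale after each array's 75th percentile was subtracted. That percentile was 9.27 with S180 and 9.55 with DMSO, so that scaling moved every difference towards S180. The 2 arrays were similar in quality, with 61.9% (S180) and 60.6% (DMSO) of the 59305 non-control spots well above background. Replicate spots of a probe gave an SD for a difference between single spots of 0.035 (log2) in the brightest of 3 equal groups of measured genes (260 replicated probes), 0.065 in the middle one (6 probes) and 0.26 in the dimmest (11 probes). Different probes of a gene varied more, with an SD between probes of 0.17, 0.20 and 0.28 in the same groups. Neither error includes variation between cultures or RNA preparations.

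P4ha2, P4ha1, Loxl2 and Plod2 had higher signals in S180, by 1.87-fold to 2.82-fold on their brightest probes, whereas Plod1, Plod3 and Loxl3 differed by 1.23-fold or less. P4ha3, Lox and Loxl4 were not well above background on either array. At the 2-fold threshold 2 of the 7 measured members, P4ha2 and Loxl2, were higher in S180, where 0.582% of all measured genes were, and 0 were lower, where 0.168% were. At 1.5-fold 4 of the 7 were higher, against 3.08% of all measured genes, and 0 were lower, against 1.71%. The member nearest above the 2-fold line was Loxl2 (log2 1.31) and the nearest below it was P4ha1 (0.99). The median of the 7 members was 0.91, beside 0.00 for all measured genes, whose central 90% lay between -0.40 and 0.49. In RNA of bulk cells, fewer cells that express a gene and less of its RNA per cell cannot be told apart. All 10 members are shown in the plot of signals by probe.

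**Figure D1:**
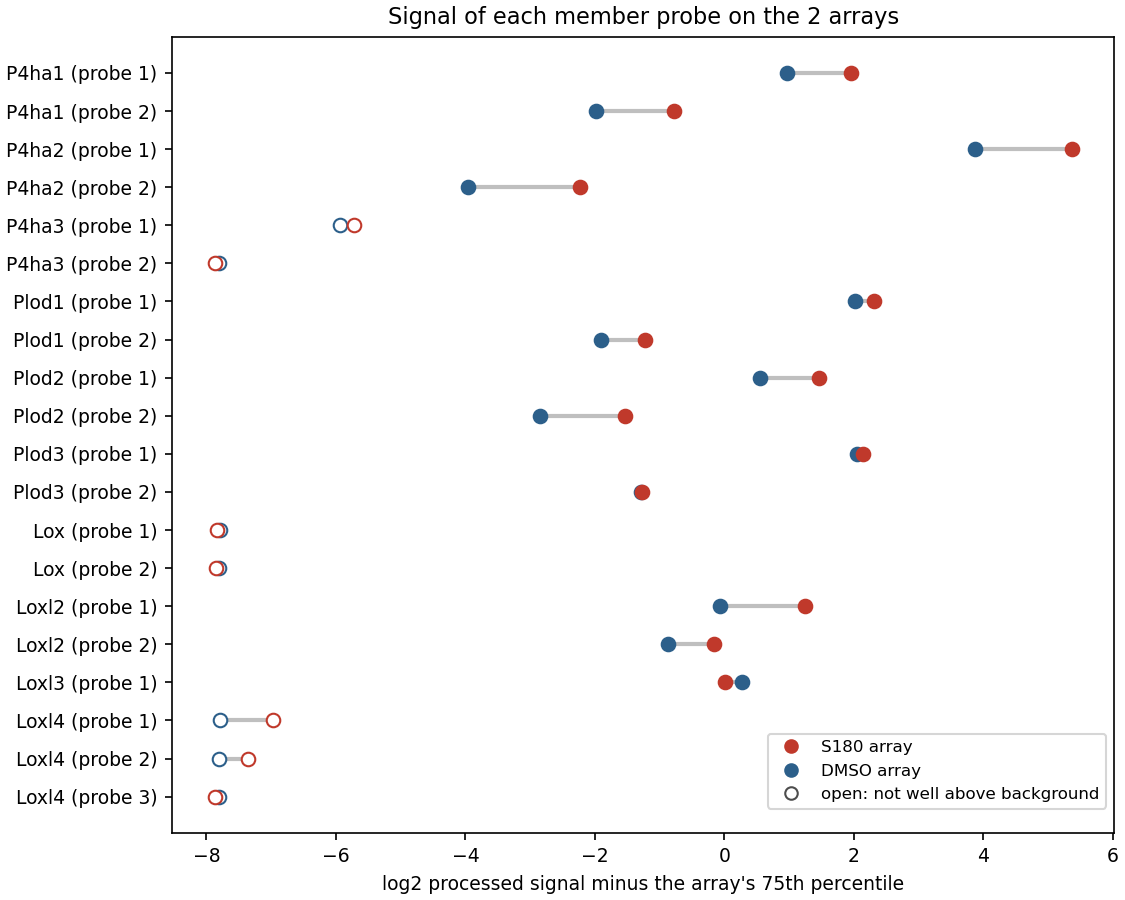
Scaled log2 signal (horizontal axis, log2 processed signal minus the array's 75th percentile) of the 20 member probes (vertical axis; probe 1 is the brightest of its gene) on the S180 array (red) and the DMSO array (blue), 1 array each. Filled points are well above background; the 7 open pairs, of P4ha3, Lox and Loxl4, are not. Levels are to be compared along a line, not between probes.

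Among the prolyl 4-hydroxylase subunits, P4ha2, an alpha subunit, had the largest difference of all members. Its brightest probe (chr11:53945032-53945091, build mm9) gave a signal of 25351 with S180 and 10918 with DMSO, which was 2.82-fold higher in S180 after scaling (log2 1.5). It ranked 35 among the 20777 measured genes ordered from the highest difference. Its other probe, named for a separate Ensembl transcript, gave 131 and 47.9, or 3.32-fold higher in S180 (log2 1.73), so that both P4ha2 probes were past 2-fold. That dimmer probe lies in the dimmest group, where the spot SD is 0.26. With normexp background correction its log2 difference fell to 1.05. P4ha1, the alpha subunit of the most widespread form of the enzyme, gave 2376 with S180 and 1455 with DMSO on its brightest probe (chr10:58834272-58834331), or 1.98-fold higher in S180 (log2 0.99). Its junction probe, printed above, gave 359 and 189, or 2.31-fold higher (log2 1.20). The brightest probe of P4ha1 thus lay just under 2-fold and its other probe above it, and under the scaling alternatives the brightest probe fell on either side of that line (1.01 with quantile normalization, 0.63 on the spike-in scale). The probes of P4ha3, the third alpha subunit, gave signals of 11.6 and 2.64 with S180 and 12.2 and 3.32 with DMSO, none of them well above background, so that no fold is given. P4hb, the beta subunit, which is also the general protein disulfide isomerase, had a log2 difference of 0.33.

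The lysyl hydroxylases differed among themselves. Plod2, which hydroxylates lysines of the telopeptides at the chain ends, gave 1691 with S180 and 1097 with DMSO on its brightest probe (chr9:92502483-92502542), or 1.87-fold higher in S180 (log2 0.91). Its other probe, also named for an Ensembl transcript, gave 212 and 103, or 2.49-fold higher (log2 1.31), in the dimmest group, where the spot SD is 0.26. Plod1, which acts on lysines of the helical part, gave 3067 and 3019 on its brightest probe (chr4:147284321-147284380), or 1.23-fold higher in S180 after scaling (log2 0.30). Its other probe, likewise named for an Ensembl transcript, gave 264 and 200, or 1.60-fold higher (log2 0.68). The direction of the brightest Plod1 probe turned on the spike-in scale (log2 -0.05), because the signals themselves were nearly equal. Plod3, which also carries glycosyltransferase activity, gave 2724 with S180 and 3091 with DMSO on its brightest probe (chr5:137472079-137472138). After scaling this was a log2 difference of 0.10, with 0.01 from its junction probe (255 and 307), and without scaling or on the spike-in scale it was -0.18 or -0.26. Plod2 lay outside the central 90% of measured genes, and Plod1 and Plod3 lay inside it on their brightest probes.

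The 4 lysyl oxidases were split further. Loxl2, a secreted lysyl oxidase known to act on collagen IV, gave 1462 with S180 and 715 with DMSO on its brightest probe (chr14:70095254-70095313), or 2.48-fold higher in S180 (log2 1.31). Its other probe (chr14:70090017-70090076) gave 549 and 407, or 1.64-fold higher (log2 0.71). Both Loxl2 probes were higher in S180, yet they differed from each other by 0.60, which was the widest gap between the probes of a member. Loxl3, a related oxidase, was the 1 measured member below 0 after scaling to the 75th percentile; without scaling Plod3 was below 0 too, and on the spike-in scale Plod3 and Plod1 were. Its junction probe gave 622 with S180 and 908 with DMSO, or 1.20-fold lower (log2 -0.26), within the central 90% of measured genes. It is the only Loxl3 probe used here. Lox, the founding member of the family, gave signals of 2.69 and 2.65 with S180 and 3.38 and 3.33 with DMSO, and was not well above background on either. Loxl4 gave at most 4.92 with S180 and 3.37 with DMSO over its 3 probes, again not well above background, and Loxl1, which completes the family, gave 3.39 and 8.05. No fold is given for these genes.

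**Figure D2:**
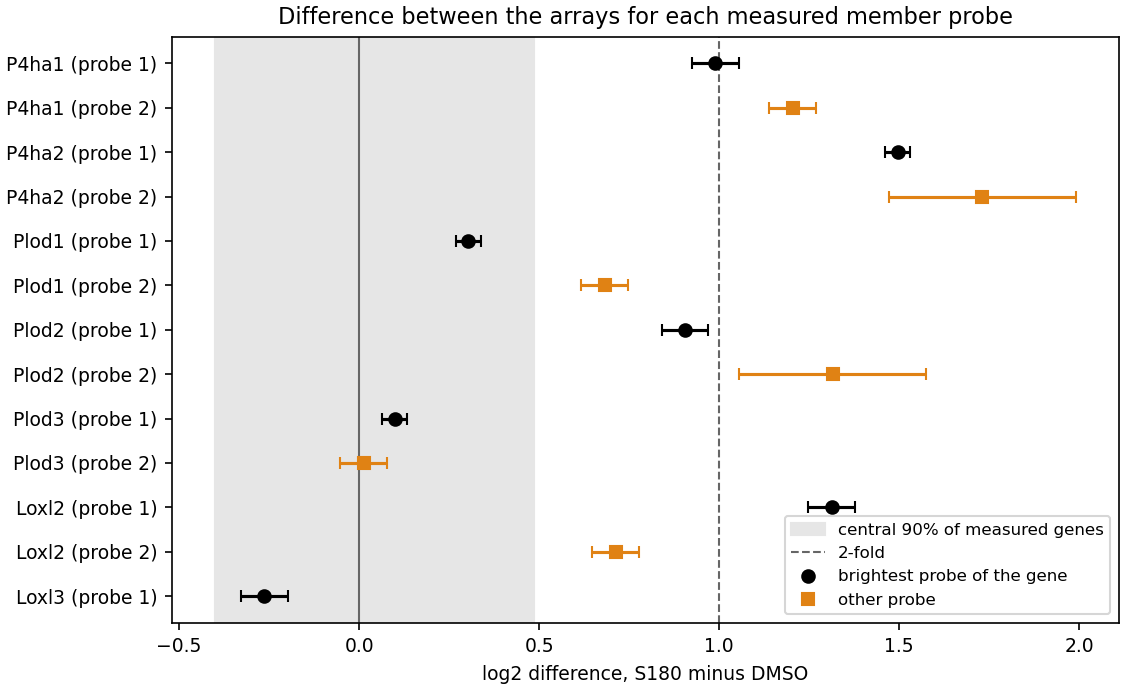
Log2 difference, S180 minus DMSO, for the 13 measured member probes; bars are 1 SD of a difference between single spots in the probe's brightness group, and the grey band is the central 90% of measured genes (-0.40 to 0.49). All probes of P4ha1, P4ha2, Plod2 and Loxl2 lie to the right of the band, those of Plod3 and Loxl3 inside it, and those of Plod1 on either side of its upper edge.

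Over single probes, 5 of the 13 measured member probes were at least 2-fold higher in S180, where 0.630% of all measured probes were, and 0 were 2-fold lower, where 0.150% were. Those higher were both probes of P4ha2 and 1 each of P4ha1, Plod2 and Loxl2. In each of the 6 members with a pair of measured probes both probes had the same sign. This held for 68.9% of the 7387 genes with such pairs and for 94.2% of the 121 whose brighter probe was at least 1.5-fold higher. The dimmer probe gave the larger difference in 4 of the 6 members (P4ha1, P4ha2, Plod1 and Plod2), and the smaller in Plod3 and Loxl2. The dimmer probes of P4ha2, Plod1 and Plod2 are named for Ensembl transcripts. Among those 121 genes the dimmer probe gave the larger difference in 37.2%. The 2 shares are not alike, because the 121 were picked for a high brighter probe. The brighter probes of Plod1 and Plod3 did not reach 1.5-fold. The median gap between the probes of a member was 0.31, beside 0.12 over all genes with pairs. The brightest probes of P4ha1, P4ha2, Plod2 and Loxl2 ranged from 0.91 to 1.5, beside a gap of 0.60 between the probes of Loxl2 alone, and their order is not settled by these arrays. The lowest probe of these 4 genes lay at 0.71, the dimmer probe of Plod1 just under it at 0.68, and the highest probe of Plod3 and Loxl3 at 0.10.

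**Figure D3:**
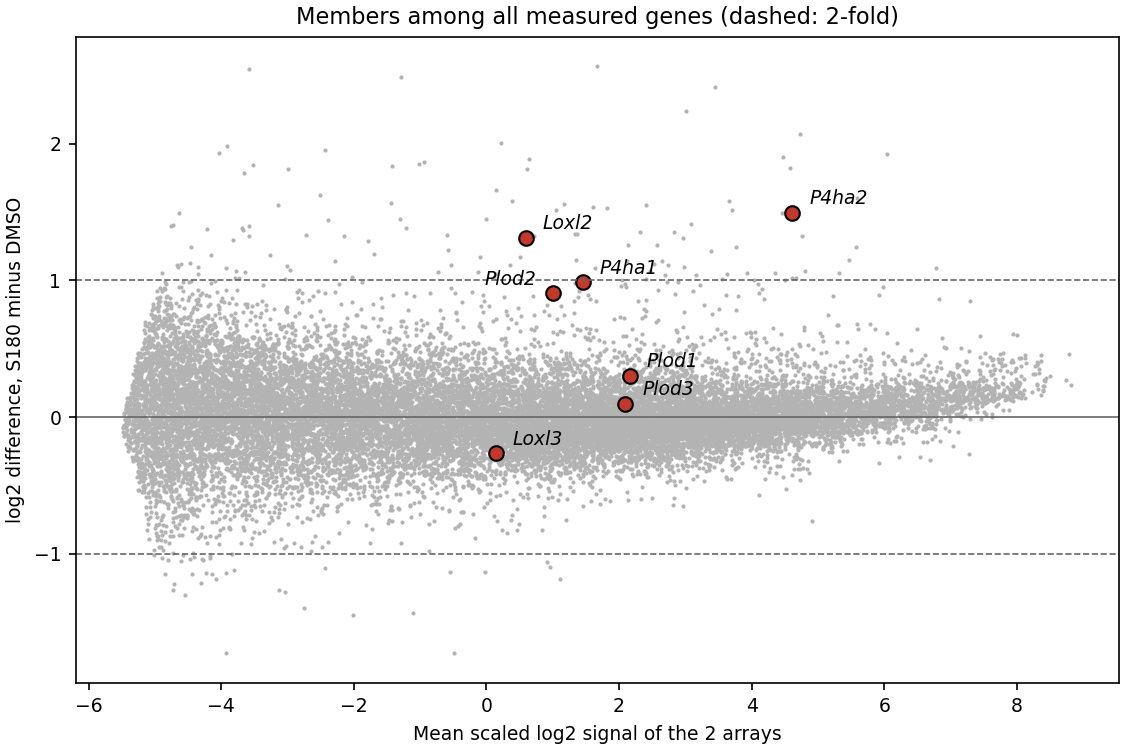
Log2 difference, S180 minus DMSO (vertical axis), against the mean scaled log2 signal of both arrays (horizontal axis) for the 20777 measured genes (grey) and the 7 measured members (red), by brightest probe. P4ha2 and Loxl2 lie above the upper dashed line (2-fold), P4ha1 and Plod2 just under it, and Plod1, Plod3 and Loxl3 among the grey points.

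The rest of the collagen pathway was described from lists that were not chosen for how they moved, although earlier results of these data were known. The 17 measured genes of collagen folding and secretion had a median difference of 0.07. At 1.5-fold 0 were higher and 0 lower, which for a list of this size is near the shares of all measured genes (3.08% and 1.71%). The largest differences were those of Tmem38b, an ion channel of the endoplasmic reticulum (-0.42), P3h2, a prolyl 3-hydroxylase (0.35), and Fkbp14, a prolyl isomerase (0.34). Other probes could differ from these. Sec23a gave 0.29 on its brightest probe and 1.07, past 2-fold, on its other, and Fkbp14 gave -0.04 on its lowest. Serpinh1, the collagen chaperone HSP47, had a difference of 0.05, with signals of 32396 (S180) and 38118 (DMSO). The chaperone complex of Crtap, P3h1 and Ppib had differences of 0.12, -0.17 and 0.07. The median of this list lay near that of all measured genes (0.00), and that of the members was 0.91.

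The collagen chains had a median difference of -0.02 over the 19 that were measured. At 1.5-fold 0 were higher and 1 was lower, counts near the shares of all measured genes (3.08% and 1.71%). That one was Col1a2, a chain of type I collagen, with signals of 640 (S180) and 1378 (DMSO) and a difference of -0.83, or -0.33 on its other probe. Its partner chain Col1a1 differed by -0.02. Col6a3, of type VI collagen, had the largest positive difference (0.53), at signals of 28.8 and 24.2, and Col5a3, of type V, differed by -0.41. Col4a1 and Col4a2, the basement membrane chains on which Loxl2 is known to act, differed by 0.09 and 0.13. The other 10 chains of the list were not measured, Col3a1 among them.

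Of 15 measured genes that process procollagen or work beside the cross-links, 1 was at least 1.5-fold higher and 1 at least 1.5-fold lower, with a median of 0.00. For a list of this size these counts are near the shares of all measured genes (3.08% higher and 1.71% lower). The lower one, Lum, which encodes the fibril proteoglycan lumican, was also past 2-fold, where 0.168% of all measured genes were. It had signals of 22.2 (S180) and 89.0 (DMSO) and a difference of -1.72 on a single probe. The higher one was Eln, elastin, the other main substrate of lysyl oxidases, with 31.8 and 25.4 (0.61). Among 10 measured genes of collagen breakdown the median was -0.13. Timp4, an inhibitor of metalloproteinases, was at least 1.5-fold higher (0.72), with 0.50 on its other probe and signals of 82.6 (S180) and 61.0 (DMSO). Fap, a serine protease of the cell surface, was at least 1.5-fold lower (-0.88) on a single probe, at 39.2 and 87.8. Timp3 differed by -0.36, or -0.02 on its other probe. These counts, 1 in each direction, are likewise near the shares of all measured genes.

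The supply of cofactors and the other hydroxylases gave a mixed account. Of 16 measured genes for ascorbate, iron and copper, 0 were 1.5-fold apart, again near the shares of all measured genes (3.08% higher and 1.71% lower), and the median was 0.16. The largest differences were those of Tfrc, the transferrin receptor that takes up iron (0.57), Slc23a1, an ascorbate transporter (0.49), and Ftl1, the ferritin light chain (0.28). Tfrc thus lay just under 1.5-fold on its brightest probe, and its other probe was past it (0.72). The other probe of Ftl1 gave 0.06. Atp7a, the copper pump that loads lysyl oxidases, differed by 0.22. Of 13 measured genes of other hydroxylases and related dioxygenases, 4 were at least 1.5-fold higher and 0 lower, with a median of 0.10. Both of those past 2-fold hydroxylate HIF: Egln3, at 1856 (S180) and 608 (DMSO), differed by 1.89, and Egln1, at 26356 and 12811, by 1.32. The other 2, between 1.5-fold and 2-fold on their brightest probes, were Jmjd6, a lysyl hydroxylase of splicing factors (0.88), and Alkbh5, a demethylase of messenger RNA (0.65). The highest of the 4 measured probes of Jmjd6 was past 2-fold (1.06). Asph (0.44) and Fto (0.09) were under 1.5-fold on their brightest probes but past it on their highest (0.90 and 0.75). Egln2, of the same family as Egln1 and Egln3, differed by 0.10, at 11516 (S180) and 13017 (DMSO), with 0.00 on its other probe. Hif1an, the asparaginyl hydroxylase of HIF, differed by -0.03.

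**Figure D4:**
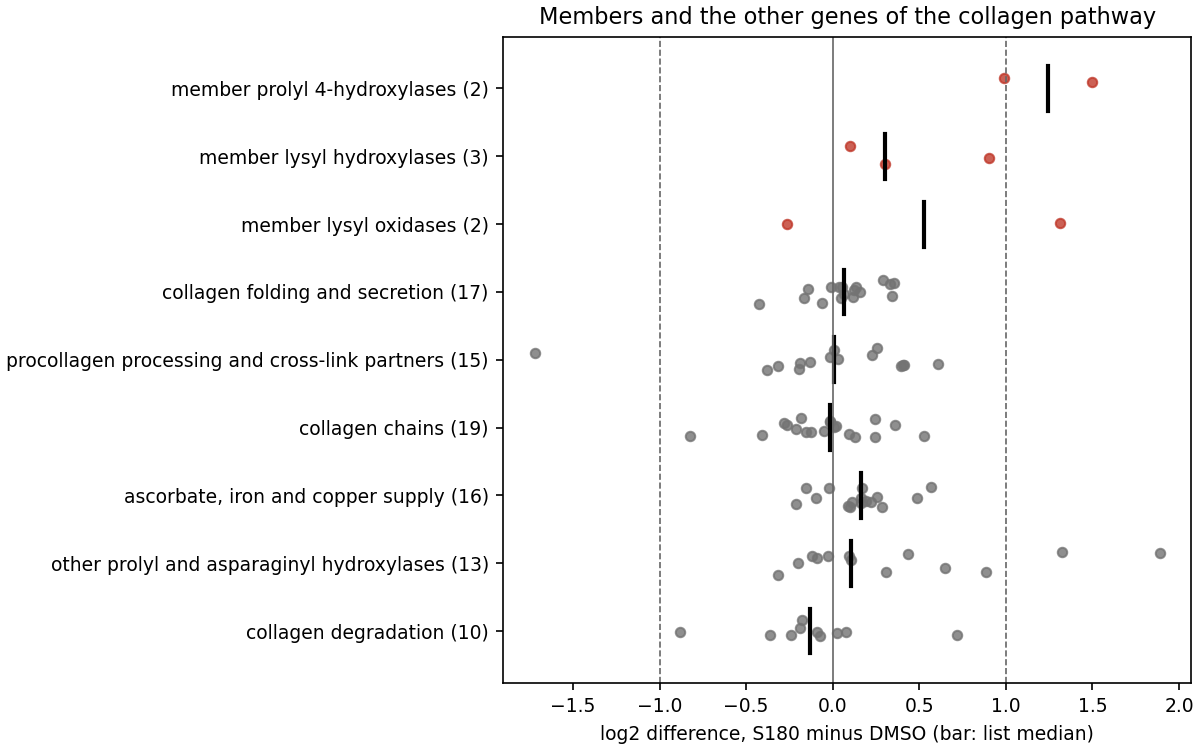
Log2 difference, S180 minus DMSO, of the brightest probe of each measured gene, by list (number measured in brackets; black bar, list median; dashed lines, 2-fold). The members are red. The medians of the 6 other lists lie between -0.13 and 0.16, and the genes past 2-fold outside the members are Lum (lower) and Egln1 and Egln3 (higher).

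The labels call the samples mouse cells and give no cell type, so 13 marker lists were read. All 7 melanocyte markers (Mitf, Dct, Tyr, Tyrp1, Pmel, Mlana and Sox10) were measured, with differences of -0.12 to 0.26. Of 8 fibroblast markers 6 were measured and 2, Col3a1 and Thy1, were not well above background on either array. All 6 measured ones lay below 0, with a median of -0.43, and the summed signal of the list was 1700 with S180 and 2896 with DMSO. Summed signals are not scaled between arrays, and that of the melanocyte list was also lower with S180 (800049 and 868102). Col1a2 alone gave 640 and 1378 of the fibroblast sum. Col1a1, Col1a2, Dcn and Lum also belong to the lists described above. The part of the fibroblast list in the values of the collagen enzymes was not tested. Of 6 epithelial markers 3 were measured (Epcam, Cdh1 and Krt14), all below 0 with a median of -0.50, and the list's summed signal was 76.6 (S180) and 126 (DMSO). These 3 were dim: Epcam gave 13.3 (S180) and 30.0 (DMSO), Cdh1 27.6 and 47.2, and Krt14 17.1 and 22.0. The lowest signal marked well above background on the S180 array was 13.1. Krt8, Krt18 and Krt5 were not well above background on either array. Of 5 endothelial markers Pecam1 alone was measured (-0.25), and the list's summed signal was 92.3 and 126. Cdh5, Kdr, Tek and Tie1 were not well above background on either array. Smooth muscle markers (5 of 5 measured) had a median of 0.08 and macrophage markers (5 of 6) one of -0.06. Lymphocyte (4 of 5) and neural markers (4 of 6) had medians of 0.14 and 0.16. Cartilage and bone (4 of 6), muscle (2 of 5) and adipocyte markers (2 of 4) had -0.03, -0.16 and 0.14. Hepatocyte (1 of 4) and germ or stem cell markers (2 of 4) had 0.19 and 0.47. The part of these lists in the values of the collagen enzymes was not tested either.

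How far the members stood from 0 depended on the scaling. On the scale of 8 spike-in transcripts the median of all genes moved to -0.35, and without scaling to -0.28. P4ha2 was then at 1.14 (spike-in) and 1.22 (no scaling), Loxl2 at 0.96 and 1.03, P4ha1 at 0.63 and 0.71, and Plod2 at 0.55 and 0.62. All 4 stayed above 0 under the 12 alternatives other than the fold thresholds, and Loxl3 stayed below 0 under the 11 that kept it. Not all of these could change the values of the 4 genes. The brightest 50% of genes, no filter on dim probes and renaming probes by accession left them the same. Keeping flagged spots left them nearly the same, and the deposited table nearly repeats quantile normalization. Relative to the median gene of the same setting, P4ha2 lay between 1.43 and 1.60 higher, Loxl2 between 1.0 and 1.36, P4ha1 between 0.91 and 1.09, and Plod2 between 0.83 and 1.1. Median, spike-in and no scaling shift all genes alike, so these relative values equal the reported ones there by construction. Plod1 lay between 0.25 and 0.48 above the median gene and Plod3 between 0.04 and 0.13, while Loxl3 lay at -0.29 to -0.22. Over all genes the split at 2-fold was 121 higher and 35 lower in the main setting, 62 and 173 without scaling, 49 and 257 on the spike-in scale and 74 and 7 with normexp background correction.

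**Figure D5:**
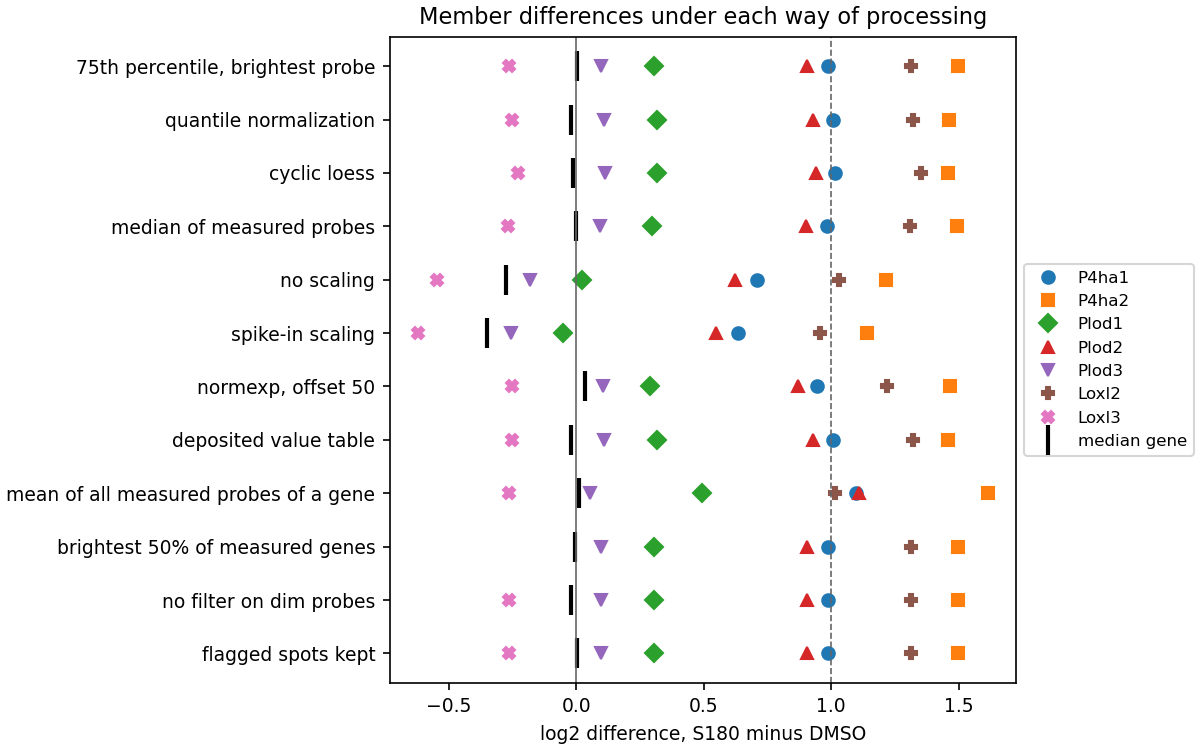
Log2 difference, S180 minus DMSO (horizontal axis), of the 7 measured members and of the median gene (black bars) under the reported setting (top line) and 11 alternatives (vertical axis); the dashed line is 2-fold. P4ha2 stays right of 2-fold throughout, and all points move left together, with the median gene, without scaling and with spike-in scaling.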

How the data were processed

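Total RNA of 1 sample per agent was labelled with Cy3 and hybridised to 1 array each, per the labels' protocols; groups follow the agent named in the labels. The deposited intensity values are those of Agilent Feature Extraction 10.7.1.1, background-subtracted and detrended, with surrogates for dim spots and no scaling between arrays, per the file headers. The labels and headers do not say how the deposited log2 table was made. Its values lay within 0.01 of quantile-normalised processed signals for 99.9% (S180) and 99.8% (DMSO) of 56745 probes; both column medians were 5.27. Each column correlated best with the array of its own sample, which settled scale and direction, and the table was used as an alternative.

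Spots of control probes were left out, as were non-control spots with an outlier flag (120 on S180, 195 on DMSO), log2 signals of a probe's spots were averaged, and each array's 75th percentile was subtracted (Python 3.11.15; limma 3.58.1 for normexp, cyclic loess and quantile normalization). No member probe lost a spot. The calculation was tested on simulated data. Genes carry the names in the files; 17 of the 20 member probes have an accession in a RefSeq table of GRCm38.p6, all 17 with the same symbol.

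All 10 members are named; from each other list the genes past 2-fold are named, or else the 3 with the largest difference. Further list genes (Serpinh1, Crtap, P3h1, Ppib, P4hb, Loxl1, Sec23a, Col1a1, Col4a1, Col4a2, Col3a1, Eln, Dcn, Jmjd6, Alkbh5, Asph, Fto, Egln2, Atp7a and Hif1an) were chosen after their values were seen. The members and lists were chosen with earlier results of these data known.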

Additional observations from a re-analysis of the deposited data

How the results depend on the processing

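No paired analysis was possible because each group has 1 sample. The median difference of the 7 measured members was 0.91 as reported, 0.62 without scaling, 0.55 on the spike-in scale, 0.87 with normexp, 0.94 with cyclic loess, 1.01 with the mean of a gene's measured probes and 0.95 in the brightest 50% of genes, which left out Loxl3. The members at least 2-fold higher numbered 2 as reported, 4 with the mean of probes, 1 on the spike-in scale, 4 at a 1.5-fold threshold and 0 at 3-fold. P4ha1 also passed 2-fold with cyclic loess, quantile normalization and the deposited table, which each gave 3. The member probes past 2-fold numbered 5 as reported, 3 with normexp and 2 on the spike-in scale. Of 175 further values (each member and each list median under each alternative), 114 stayed within the SD between replicate spots and 61 moved beyond it, and none that was 2-fold apart changed sign. The 114 include settings that cannot change a member's value. No member was 2-fold lower under any of these settings. Differences between single dim spots are limited by their signal over background, and 3 members could not be measured at all.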
